A study of Homo sapiens with 3 samples.

Results

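Tall narrow peaks of 8-oxo-7,8-dihydro-2'-deoxyguanosine (8-oxodG) were the rows of a genome-wide peak list with a pileup of at least 80 fragments at the summit and a width under 1000 bases. This rule chose 958 of the 23641 listed peaks, or 4.05% of the list and 4.29% of the 22327 peaks under 1000 bases. The members were thus chosen by the measured pileup and width. The DNA came from MCF10A, an established human breast epithelial cell line that forms no tumours, arrested in G0, where cells do not divide. It was sheared by sonication, and the fragments that an anti-8-oxodG antibody bound were recovered and sequenced. The 3 samples formed 1 group, with 2 samples from experiment 1 and 1 from experiment 2. The labels name no treatment or introduced allele, and no second condition, input library or control antibody was analysed here. The authors combined the 3 samples in 1 list, without values for single samples, so there is no replicate error for any value below.

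Guanine is the base most easily oxidised by reactive oxygen species, and 8-oxodG is the most commonly measured product. It can pair with adenine during replication, and left in place it leads to a change from G-C to T-A. Base excision repair removes it, starting with the glycosylase OGG1, and a resting cell carries what repair has not yet removed. A peak in such a map is a stretch of DNA whose fragments were recovered by the antibody more often than the local background, and its summit is the base covered by the most fragments.

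The rule used pileup and width, and fold enrichment and background are built from the pileup. These values are therefore given as a description, with the 21369 other peaks under 1000 bases ("other narrow peaks") beside them, and no test was made. Position, spacing, the place of the summit and the values of neighbouring peaks were not part of the rule. The summit offset in percent is, however, divided by width, which the rule limits. Shares carry exact binomial (Clopper-Pearson) 95% intervals and medians 95% intervals from the binomial order of their values. Both take peaks as independent and cover counting error only. The number of sequenced fragments per sample was not given in the sources used here.

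Members lay in the upper tail of a continuous range of heights. Their pileup had a median of 95 fragments, with quartiles of 86 and 110 and a range from 80 to 212, whereas the other narrow peaks had a median of 23. Members were also wider, with a median of 710 bases and quartiles of 626 and 808, against 433 bases for the other narrow peaks. Across members, pileup and width were weakly related (Spearman's rho = 0.315, n = 958 peaks of 1 list), more weakly than across the other narrow peaks (rho = 0.683), whose heights span a different range. Of all 1315 listed peaks with a pileup of at least 80, the members made up 72.9%, and the other 357 were 1000 bases or wider.

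**Figure D1:**
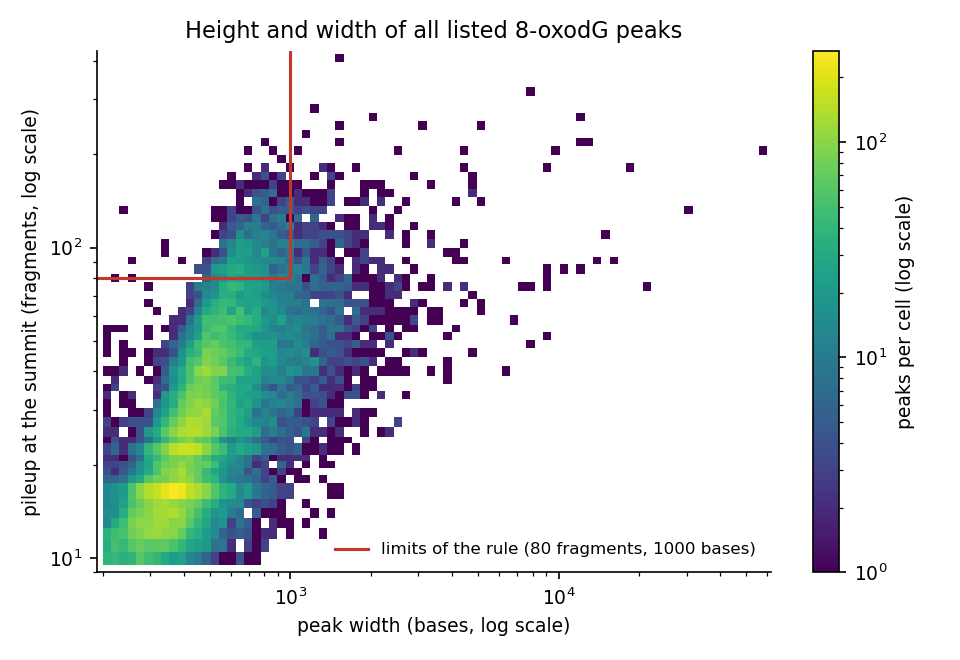
Width of each listed peak in bases (x, log scale) against pileup at the summit in fragments (y, log scale), with the number of peaks per cell as colour (log scale). The red lines mark the limits of 80 fragments and 1000 bases; the 958 members fill the upper left corner, with no gap in the cloud of peaks at either limit.

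Peaks just inside and just outside the limits had similar values. The 34 peaks with a pileup of exactly 80 had a median fold enrichment of 35.9 (11.6 to 47.0) and a median background of 1.26 fragments. The 34 narrow peaks with a pileup of 79, just outside, had a median fold of 33.1 (10.5 to 49.1) and a median background of 1.42. At the other limit, the 5 longest members were 998 to 999 bases wide with a median fold of 37.1, and the 5 shortest tall peaks beyond it were 1000 to 1003 bases wide with a median fold of 39.6.

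Named by height, the 10 tallest members came from 2p11.1, 1q21.1, 14q32.32, 8q24.3, 5q33.3, 21p11.2, 8p23.3, 21p11.1, 5q35.2 and 5q32. Coordinates are those of the authors' list on build hg18, counted from 1, and no gene was assigned to a peak, because no gene annotation of that build was used here. The tallest (chromosome 2, 91022822 to 91023637) had a pileup of 212, a fold enrichment of 32.7 and a background of 5.50 fragments, and it lay in the pericentromeric band 2p11.1. The next (chromosome 1, 147295360 to 147296206) had a pileup of 208, a fold of 32.1 and a background of 5.50. These peaks were tall over a high background.

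The member in 14q32.32 (chromosome 14, 102406071 to 102406759) was the reverse case, with a pileup of 200 over a background of 0.46, the lowest in the list, and a fold of 138. Chromosome 5 supplied 3 of the 10, all on the distal long arm. They were the peaks at 158457917 to 158458724 in 5q33.3 (pileup 183, background 4.403), 174948073 to 174948845 in 5q35.2 (pileup 174, background 1.89) and 146619257 to 146620157 in 5q32 (pileup 171, background 3.15). The 2 on chromosome 21 had pileups of 181 and 174 over backgrounds of 3.46 and 3.35, and those on chromosome 8 had 187 in 8q24.3 and 176 in 8p23.3. Of the 10 tallest, 3 lay in pericentromeric or variable bands and 2 on arms of raised background, a group described below.

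Ranked by fold enrichment in place of height, the order of the members changed, and 2 of the 10 tallest were also among the 10 of highest fold. The first 4 by fold were the 4 members in 14q32.32, at 138, 93.8, 79.5 and 68.9. They were followed by members in 6q14.1 (68.1), 21q22.2 (65.2), 2q13 (64.7), 17q21.32 (64.378), 2p12 (64.374) and 8p23.3 (64.1). The pileups of these 10 ran from 93 to 200, and their backgrounds from 0.46 to 1.76 with a median of 0.563. Both values enter the fold by construction. Across all members, fold fell as background rose (rho = −0.795, n = 958), as the pileup in its numerator spanned a narrow range. Across the other narrow peaks rho was 0.0120.

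The background at the summit was recovered as (pileup + 1) / fold enrichment − 1, in fragments. Members had a median of 1.59 (95% interval 1.57 to 1.73), with quartiles of 1.23 and 2.36, and the other narrow peaks a median of 0.944 (quartiles 0.692 and 1.42). A background of at least 2 fragments was found at 327 members, or 34.1% (31.1 to 37.2), against 10.2% (9.77 to 10.6) of the other narrow peaks. A background under 1 was found at 12.7% of members and 53.9% of the others. Fold enrichment was nevertheless higher in members, with a median of 38.5 (quartiles 30.8 and 45.1) against 11.2. In the list as a whole the lowest fold was 7.001, which bars low peaks from high backgrounds but lets a peak of pileup 80 stand over up to 10.6 fragments. The listing therefore bears on the difference in background and the rule on that in fold, by amounts that were not measured.

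**Figure D2:**
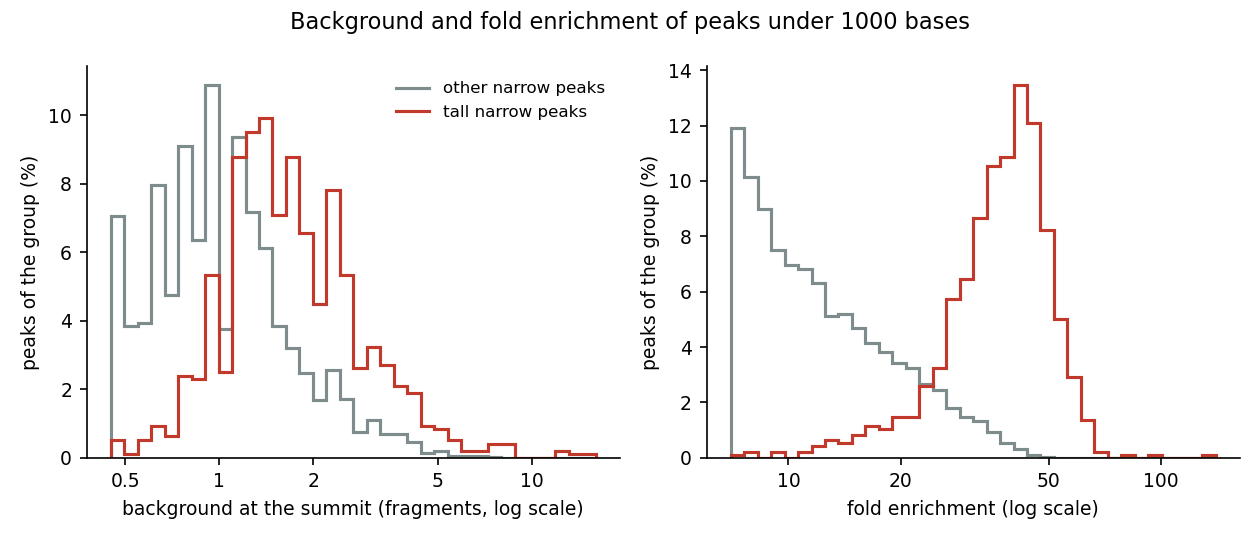
Background at the summit in fragments (left, log scale) and fold enrichment (right, log scale) of the 958 tall narrow peaks (red) and the 21369 other narrow peaks (grey), each as a percentage of its group per bin. Members are shifted to the right in both, with medians of 1.59 against 0.944 fragments and of 38.5 against 11.2.

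Members of low fold or of high background were few. A fold under 20 was found in 55 members (5.74%), and a background of at least 5 fragments in 25 (2.61%, against 0.323% of the other narrow peaks). These 25 had a median fold of 12.9 (7.09 to 32.7), and 13 lay on arms of raised background and 5 in pericentromeric or variable bands. The highest backgrounds were 15.6 in 16q11.2 (chromosome 16, 44960942 to 44961188), 13.997 in 9q21.11, 12.7 in 10q24.1, 12.3 in 8q24.3 and 8.65 in 8q24.13. The member in 16q11.2 was also the shortest of all, at 247 bases, with a pileup of 133 and a fold of 8.09. At the other end, the 5 lowest backgrounds were those of 3 members in 14q32.32 (0.46, 0.46 and 0.466), of 1 in 2p12 (0.46) and of 1 in 6q22.33 (0.472).

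The background took discrete values. The commonest were whole multiples of 0.157 fragments, and most of the rest were multiples of 0.0315. Callers that write such columns take the largest of several local averages as background, and which averages the authors' caller used was not given in the sources used here. Among members, 673 of 958 backgrounds (70.3%, 67.2 to 73.1) were whole multiples of 0.157 within a tolerance of 0.01 of a step, against 56.3% (55.6 to 57.0) of the other narrow peaks. This share rose with height over all narrow peaks, from 49.1% at a pileup of 10 to 19 to 72.1% at 100 or more. In the other narrow peaks with a pileup of at least 40 it was 63.6%. Multiples of 0.0315, which include the former, covered 98.9% of members and 92.3% of the others. The lowest value of the list, 0.46, which is no such multiple, was the background of 3 members and of 890 other narrow peaks (0.313% and 4.16%).

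The background of the nearest other listed peak is a measure of the surroundings that the rule did not use. At the neighbours of members it had a median of 1.10 fragments (95% interval 1.10 to 1.16), and at the neighbours of the other narrow peaks 0.975 (0.975 to 1.01). With the arms of raised background, described below, taken apart, this difference was not seen. The median was 1.42 for the neighbours of both groups on those arms and 0.944 for both on the remaining arms. A member's own background was higher than that of its neighbour in 681 of 958 cases (71.1%, 68.1 to 73.9), with a median ratio of 1.44 (1.36 to 1.49). For the other narrow peaks it was higher in 45.0% of cases, with a median ratio of 0.967. The background was thus raised more at the members themselves than at the next listed peak. Height enters this ratio through the listing, as above, and the other narrow peaks with a pileup of at least 40 stood between, with a median ratio of 1.19 (1.16 to 1.21).

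Members were found on all 23 chromosomes of the list, in 410 of the 814 cytogenetic bands that held a narrow peak, but unevenly. Chromosome 8 held 119 members, chromosome 16 112, chromosome 19 92 and chromosome 20 70. Per sequenced Mb, chromosome 19 led with 1.65 members, followed by chromosome 16 (1.42), 20 (1.18), 8 (0.834) and 22 (0.574), against 0.338 over all. Chromosomes 13 and 15 were lowest, with 10 members each and 0.105 and 0.123 per Mb.

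Because peaks of all heights are denser on some chromosomes, the members were also set against the number of narrow peaks in the same place. On this scale chromosome 16 was highest, where 11.1% of narrow peaks were members (95% interval 9.26 to 13.2), followed by chromosome 8 with 9.45% (7.89 to 11.2), 20 with 8.89% (6.999 to 11.1) and 19 with 7.25% (5.88 to 8.82). The intervals of these 4 overlapped between neighbours in this order. Chromosome X came next with 4.84% (3.59 to 6.36), and its interval overlapped that of chromosome 19 but lay below those of 8, 16 and 20. The lowest shares were 1.79% on chromosome 13 and 1.87% on chromosome 15.

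The arms with the largest shares were those with the most background. The arms 8p, 8q, 16p, 16q, 20p, 20q and 19q had a median background, over all listed peaks, of 1.45 to 1.67 times that of the median arm (0.944 fragments), and no other arm with at least 20 peaks exceeded 1.17 times. These 7 arms were singled out in an earlier analysis of the same list, members included. Their background is built from the pileup, so the grouping is not independent of the rule, and the shares below are a description. They held 369 members, or 38.5% (35.4 to 41.7), against 16.4% (15.9 to 16.9) of the other narrow peaks. The share of narrow peaks that were members was 11.7% on 16p, 10.6% on 16q, 10.4% on 8p, 9.54% on 20q, 8.97% on 8q, 8.34% on 19q and 7.75% on 20p. On the 34 remaining arms with at least 20 narrow peaks it ran from 0.915% on 5p to 7.68% on Xp, with a median of 3.02%. The shares of the 7 arms therefore all stood above those of the 34 others, although the interval of Xp (5.43 to 10.5) overlapped that of each of the 7, from 4.92 to 11.5 on 20p up to 8.92 to 15.01 on 16p.

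**Figure D3:**
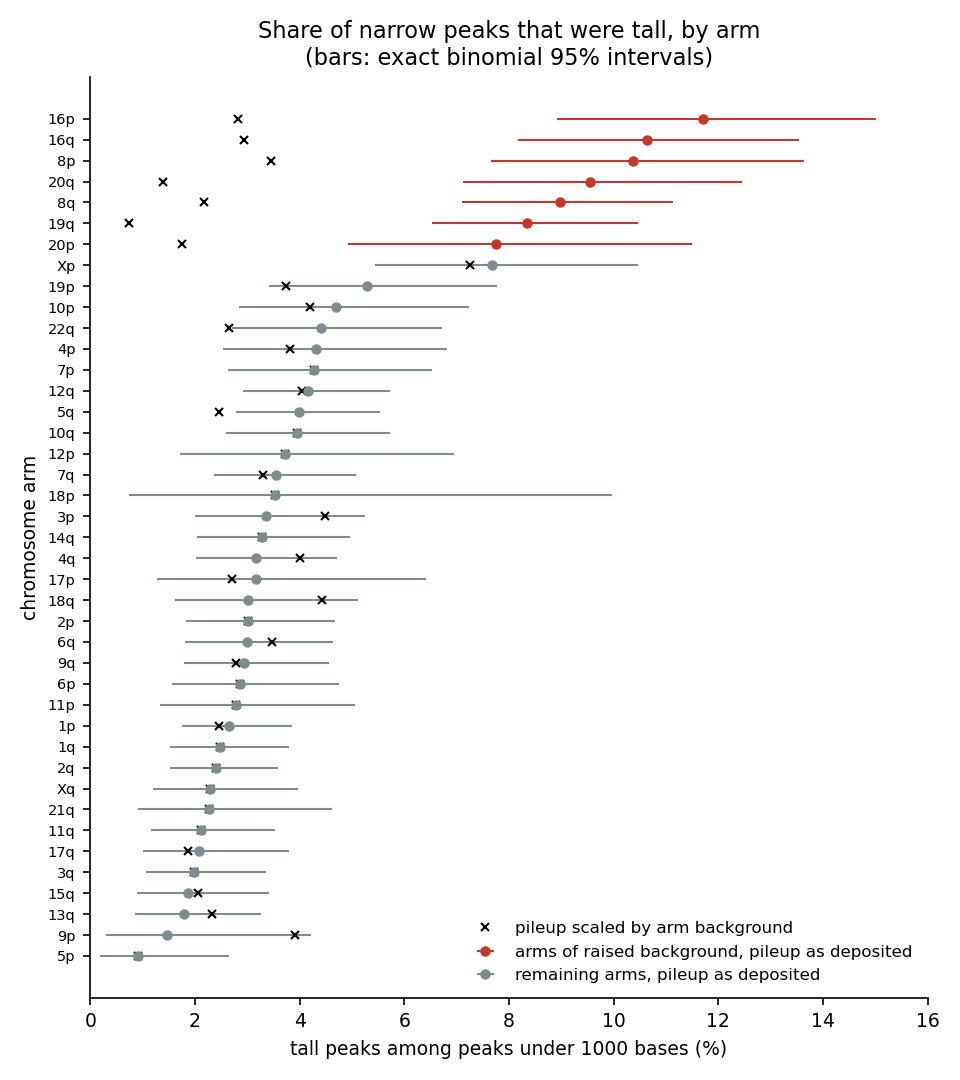
Tall peaks as a percentage of peaks under 1000 bases (x) on each of the 41 chromosome arms with at least 20 such peaks (y), with exact binomial 95% intervals as bars, red for the 7 arms of raised background and grey for the remaining arms. Crosses give the share after the pileup was divided by the arm's relative background. The 7 arms drop from between 7.75% and 11.7% to between 0.736% and 3.46%. Xp, with a relative background of 1.03, is hardly scaled and stands at 7.25%.

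Members on the 7 arms had a lower median fold than those elsewhere. All members share the floor of 80 fragments and background enters the fold, so this is partly built in. Their median fold was 34.7 (33.5 to 36.4) over a median background of 1.98 (1.89 to 2.08), whereas the 589 members on the remaining arms had a median fold of 40.5 (39.6 to 41.2) over 1.42. The other narrow peaks had about the same fold on the 7 arms (median 11.4) and elsewhere (11.1), with median pileups of 29 and 22. Those with a pileup of at least 40, however, also had a lower median fold on the 7 arms. It was 19.9 (19.1 to 20.5) there and 23.7 (23.3 to 24.0) elsewhere, so the lower fold was not particular to members. When each pileup was divided by the relative background of its arm, an alternative chosen after seeing the data, 657 narrow peaks reached 80 and 627 of them were members. Of these 657, 80 (12.2%) lay on the 7 arms, and the share of narrow peaks that were tall was 2.07% there and 3.13% elsewhere. The leading place of the 7 arms was thus lost with scaled heights. The division itself lowers pileups most on these arms, so this loss is partly built in and tests no cause. More copies of a region, more fragments per copy and more 8-oxodG cannot be told apart in this list.

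The concentration on these arms grew with height. Among narrow peaks with a pileup of 10 to 19, 10.5% lay on the 7 arms, and the share was 16.8% at 20 to 29, 19.8% at 30 to 39, 23.5% at 40 to 59 and 27.1% at 60 to 79. It was 34.2% (30.3 to 38.2) for members of 80 to 99 and 44.9% (39.9 to 49.96) for the 390 members of 100 or more. Over the same classes the median background rose from 0.786 to 1.46 and 1.79 fragments. On the remaining arms alone it rose as well, from 0.786 in the lowest class to 1.26 in members of 80 to 99 and 1.57 in those of 100 or more. The listing bars low peaks from high backgrounds, as above, and the 7 arms are marked out by a background built from the pileup. Both bear on these rises, in share and in background, by amounts that were not measured.

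Within the 7 arms 9.54% of narrow peaks were members (8.63 to 10.5), and single bands lay on both sides of this share. The most members were in 8q24.3, at the distal tip of 8q, with 18 of its 96 narrow peaks, followed by 16p12.1 (16 of 101), 19q13.33 (15 of 151, or 9.93%), 19q13.2 (14 of 162, or 8.64%), 16p13.2 (12 of 74), and 8p12 (11 of 77), 8p21.3 (11 of 56) and 20q13.33 (11 of 96). As a share, 8p21.3 stood at 19.6% (10.2 to 32.4), 8q24.3 at 18.8% (11.5 to 28.0) and 16q12.2 at 18.2% (9.08 to 30.9). The members of 8q24.3 had a median background of 3.62 fragments and a median fold of 24.4, low among the bands named here, and those of 16q12.2 1.60 and 40.03. Along 8q the shares ranged from 2.08% in 8q22 (2 of 96) to 13.1% in 8q24 (43 of 328, 9.65 to 17.3). Along chromosome 20, 20q13 held 42 of 342 narrow peaks (12.3%) and 20q11 5 of 113 (4.42%).

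Among arms without raised background that held at least 20 narrow peaks, the short arm of X was highest. It held 36 members among 469 narrow peaks, or 7.68%, against 12 of 523 (2.29%, 1.19 to 3.97) on the long arm of the same chromosome. The members were confined to 2 stretches of Xp. In Xp22, at its far end, 26 of 263 narrow peaks were members (9.89%, 6.56 to 14.1), in Xp11 next to the centromere 10 of 149 (6.71%), and in Xp21 between them 0 of 57, which by counting error alone allows up to 6.27%. The band Xp22.32 alone held 10 of 59 (16.9%, 8.44 to 29.0), with a median fold of 45.5. The median background of the other narrow peaks was 0.881 in Xp22, below that of the median arm, and 1.04 in Xp11. The background of Xp was 1.03 times that of the median arm, so scaling by arm background hardly changed its heights. Xp kept 34 tall peaks (7.25%) and ranked first among the 41 arms. This rank is partly built in, because the division lowers the 7 arms of raised background most.

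Other arms outside the 7, with backgrounds of up to 1.17 times that of the median arm, lay closer together. The short arm of chromosome 19 held 24 members (5.29%, 3.42 to 7.76), 12 of them in 19p13.3, with a median fold of 41.5 over a background of 1.23. The shares on 10p (4.69%), 22q (4.41%), 4p (4.31%) and 7p (4.28%) had intervals that overlapped widely. On 5q, which is counted with the remaining arms throughout, the members lay mostly in the distal part. From 5q31 to 5q35, 25 of 447 narrow peaks were members (5.59%, 3.65 to 8.15) and the other narrow peaks had a median background of 1.29, whereas from 5q11 to 5q23 9 of 405 were members (2.22%, 1.02 to 4.18) at a median of 0.912. The 5q31 to 5q35 members had a median fold of 33.9, near that of the 7 arms, and those of 5q11 to 5q23 43.1.

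The bands beside centromeres and the variable heterochromatin bands, which hold much repeated satellite DNA, had a larger part of the members than of the other narrow peaks. They held 32 members, or 3.34% (2.30 to 4.68), against 1.43% (1.27 to 1.60). On the 7 arms alone these bands held 3.25% of members and 2.92% of the other narrow peaks, and on the remaining arms 3.40% and 1.14%. By count the first was 19q12, with 8 of 87 narrow peaks (9.20%, 4.05 to 17.3), close to the share over the 7 arms, followed by 2p11.1 and 16q11.2 with 3 members each. These 32 members had a median background of 2.66 fragments (1.73 to 3.62), against 1.57 in the remaining 926, and a median fold of 34.6 (29.1 to 40.4) against 38.5. On the short arm of chromosome 21, 3 of only 4 narrow peaks were members. Reads from repeats can map to several places, and how the authors treated such reads was not given in the sources used here.

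Stain classes of the other bands differed less. Members made up 4.13% of narrow peaks in Giemsa-negative bands (3.77 to 4.52), 4.85% in gpos25, 5.32% (4.59 to 6.12) in gpos50, 3.93% in gpos75 and 2.82% (2.22 to 3.54) in gpos100, the darkest class. On the remaining arms alone, the shares were 3.13%, 3.96%, 3.84%, 2.51% and 2.15% in the same order. On the 7 arms they were 8.95%, 7.50%, 12.8%, 10.5% and 8.95%. The shares thus did not decline evenly from light to dark bands, and the order of the classes differed between both kinds of arm. Within 2 Mb of a chromosome end lay 51 members (5.32%, 3.99 to 6.94) and 4.89% of the other narrow peaks, with overlapping intervals. Within 50 kb of the edge of a sequenced contig lay 17 members (1.77%, 1.04 to 2.83), against 1.02% (0.894 to 1.17).

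Members stood closer to other peaks than the other narrow peaks did. The median distance between midpoints of a member and the nearest other listed peak, of any width, was 18690 bases (95% interval 16692 to 21239), against 31530 (30672 to 32395). Another listed peak lay within 10 kb of 323 members (33.7%, 30.7 to 36.8) and of 24.0% (23.4 to 24.5) of the other narrow peaks, and within 50 kb of 75.6% and 62.7%. Within 1000 bases the shares were 2.51% (1.61 to 3.70) and 2.98% (2.75 to 3.21), with overlapping intervals. Distances between midpoints take in the widths of the peaks, and members were wider, which bears on this short range. Measured between the nearest edges, the closest 10% of members lay within 1671 bases of another peak. For the other narrow peaks this gap was 2766 bases.

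**Figure D4:**
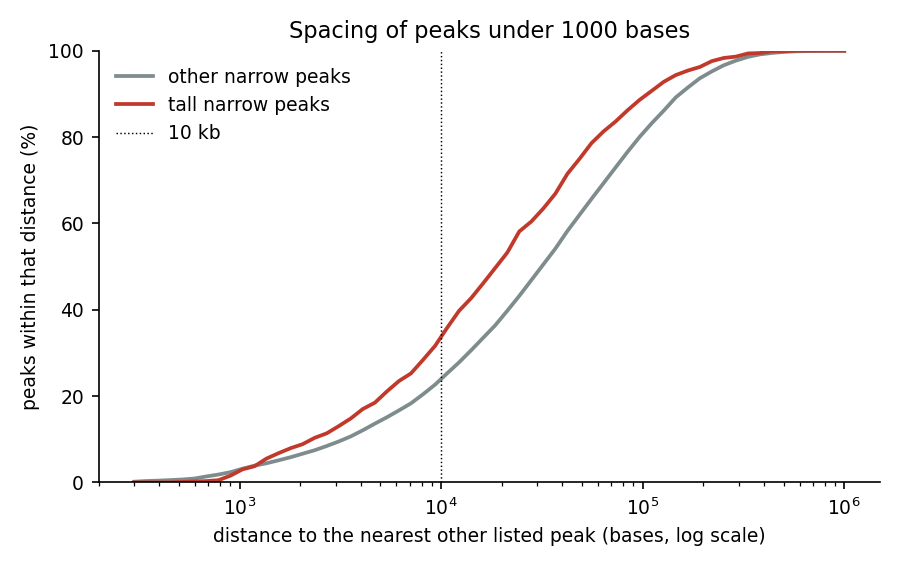
Cumulative percentage of peaks (y) by the distance to the nearest other listed peak in bases (x, log scale), for the 958 tall narrow peaks (red) and the 21369 other narrow peaks (grey). At the dotted line at 10 kb the curves stand at 33.7% and 24.0%, and they meet at about 1000 bases.

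The median spacing was closer on both kinds of arm. On the 7 arms of raised background, where peaks of all heights are dense, members had a median distance of 14463 bases and the other narrow peaks 19894, while the shares with a neighbour within 10 kb, 37.9% (32.97 to 43.1) and 33.1% (31.5 to 34.7), had overlapping intervals. On the remaining arms the medians were 21533 (18326 to 23827) and 34825 (34000 to 35828), and the shares with a neighbour within 10 kb 31.1% (27.4 to 34.98) and 22.2% (21.6 to 22.8). Over classes of height the share within 10 kb went from 20.9% at a pileup of 10 to 19 through 27.8% at 40 to 59 and 30.1% at 80 to 99 to 39.0% (34.1 to 44.0) at 100 or more. The share was higher in each class than in the one below. From 60 to 79 (29.95%, 27.4 to 32.6) to 80 to 99 (26.4 to 34.1), however, it hardly changed and the intervals overlapped.

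The neighbours of members were mostly ordinary peaks. The nearest listed peak had a median pileup of 29 (27 to 30), against 25 (24 to 25) for the neighbours of the other narrow peaks. It was 1000 bases or wider in 8.25% and 4.87% of cases, and its pileup reached 80 in 93 of 958 cases (9.71%, 7.91 to 11.8), against 5.25% (4.95 to 5.55). On the remaining arms the shares were 7.64% (5.63 to 10.1) and 3.92% (3.64 to 4.22). On the 7 arms they were 13.01% (9.75 to 16.9) and 12.01% (10.9 to 13.1), with overlapping intervals.

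Few members had another member nearby, and no share expected by chance was computed. Another member lay within 10 kb of 43 of them (4.49%, 3.27 to 5.999), which formed 20 pairs and 1 group of 3. The other 915 stood alone on this scale. Where the nearest listed peak lay within 10 kb, its pileup reached 80, at any width, in 12.4% (8.997 to 16.5) of 323 members. For the other narrow peaks this share was 7.05% (6.36 to 7.79). On the 7 arms the shares were 17.9% and 13.2%, and on the remaining arms 8.20% and 5.25%, with overlapping intervals on both. The group of 3 lay in 19p13.3 (chromosome 19, 1618814 to 1629897), with a median fold of 53.6 and a highest pileup of 122. The tightest pair was in 8q24.3 (chromosome 8, 143869686 to 143871239), with 1554 bases from end to end. Others were in 3p12.3 (1618 bases), 19p13.12 (1834 bases) and 16p11.2 (2023 bases). Both pairs of 14q32.32 (102406071 to 102412836 and 102433128 to 102439743) had median backgrounds of 0.541 and 0.463 and median folds of 109 and 81.4, the highest of all pairs.

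Single members at the extremes of spacing were unlike each other. Those nearest to another listed peak lay in 4p11 (482 bases), 19q13.2 (582), 17p12 (635), 8q23.3 (740) and 14q32.32 (762). The farthest lay in 3q25.31, at 576978 bases from the next listed peak, followed by 2q32.1 (434245), 18q21.33 (431300), 1q12 (428356) and 10q23.31 (385222). The member in 3q25.31 (chromosome 3, 157235562 to 157236347) had a pileup of 83, a background of 0.755 and a fold of 47.9. The one in 1q12, a variable band, had a pileup of 150 over a background of 8.34.

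The summit lay near the middle of most members. Measured from the start, it stood at a median of 49.9% of the width, with quartiles of 44.7% and 55.4%, and lay before the midpoint in 485 members and after it in 470. Without regard to side, the median offset from the midpoint was 5.34% of the width (4.95 to 5.83), against 7.12% (6.998 to 7.23) in the other narrow peaks. An offset of at most 10% was found in 749 members (78.2%, 75.4 to 80.8) and in 65.0% (64.4 to 65.7) of the others, and one of over 20% in 22 members (2.30%) and 6.98% of the others. The 357 tall peaks of 1000 bases or more, which the rule leaves out, had a median offset of 15.7% (14.2 to 17.0). Central summits were thus not a trait of tall peaks of all widths.

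**Figure D5:**
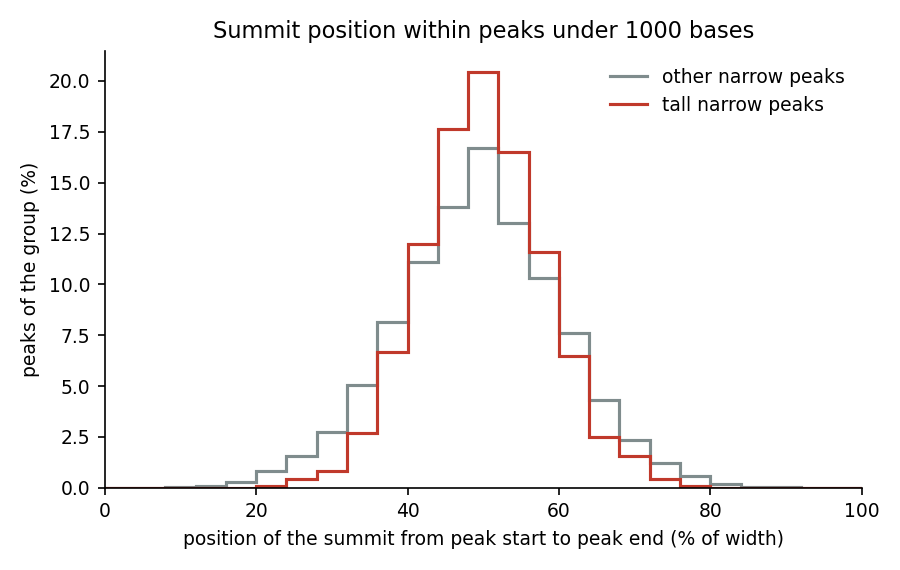
Position of the summit from the start to the end of the peak, in percent of its width (x), as the percentage of peaks in each bin (y), for the 958 tall narrow peaks (red) and the 21369 other narrow peaks (grey). Both are centred near the middle, with medians of 49.9% and 49.5%, and the members are packed closer to it, with quartiles of 44.7% and 55.4% against 42.4% and 56.6%.

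In bases the order of members and other narrow peaks was the other way round. The median offset was 37 bases (34.5 to 40.5) in members and 29.5 (29 to 30) in the other narrow peaks, and 41 (39.5 to 42) in those with a pileup of at least 40. Over classes of height, the offset in percent was between 6.96% and 7.50% from a pileup of 10 up to 59, then 6.56% at 60 to 79, 5.53% (4.93 to 6.17) at 80 to 99 and 5.26% (4.74 to 5.72) at 100 or more. In bases it went up from 23 to 41.5 at a pileup of 60 to 79 and stood at 37 and 37.3 in the members. The median width over these last 3 classes was 629, 679 and 756 bases, so that the members' summits were no farther from the middle in bases although the peaks were wider. On the 7 arms of raised background the median offset of members was 5.81% and elsewhere 5.12%, with overlapping intervals.

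Members with off-centre summits included all 4 in 14q32.32, at offsets of 21.1% to 22.6% of the width. Of the 22 members with an offset of over 20%, 3 others lay in pericentromeric or variable bands. The summits nearest to an edge were in 4p11 (29.8%, pileup 80, background 4.09), 1q12 (27.9%) and 6q25.1 (25.4%). The 4 members of 14q32.32 thus combined an off-centre summit, the highest fold and a background of 0.46 to 0.623. In 3 members, in 13q12.13, 11q13.2 and 12q24.32, the summit fell on the midpoint exactly.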

How the data were processed

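DNA immunoprecipitated with an antibody against 8-oxodG was sequenced from 3 samples of G0-arrested MCF10A cells. The submitters' processing notes name BWA, SAMtools, bedtools and hg18. The peak caller, its control, its settings, the handling of duplicate and multiply mapped reads and the pooling were not given in the sources used here. Per the file headers, the deposited list gives position, width, summit, pileup (a signal in fragments), fold enrichment, p and q. Other units were positions and numbers written without a readable decimal point. In the deposited fold enrichment and p the points had been lost. They were restored from the Poisson relation between pileup, background and p, which 23640 of 23641 peaks met within 0.01 on the −log10 scale. The remaining peak (pileup 400, 1528 bases wide) is no member. On 2000 rows simulated from the same Poisson relation 100% of values were recovered. This checks the restoring step and not whether the list follows that relation. The q-values were not used.

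Bands of hg18 came from circlize 0.4.16 and contigs from IRanges 2.36.0 under R 4.3.3, with Python 3.11.15, numpy 2.4.6, pandas 2.3.3, scipy 1.17.1 and matplotlib 3.10.9. A band was assigned by a peak's midpoint, and distances were taken between midpoints. No genome sequence was used here. The members, the 7 arms and the comparisons were chosen with earlier results of these data known. Named peaks were the 10 of highest pileup and of highest fold, the 5 at each end of background and of spacing, and the 3 at each end of summit offset. Bands with 3 or more members numbered 103 and were named by count. Other members and bands named were chosen after their values were seen. Alternatives changed height, width, fold, joining, bands, arms and chromosomes.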

Additional observations from a re-analysis of the deposited data

How the results depend on the processing

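No replicate could be left out, since the list combines the samples. No paired analysis was possible because the samples form 1 group. A pileup of at least 100 left 390 members, with a median background of 1.79, a median fold of 41.5, 4.87% in pericentromeric or variable bands, 44.9% on the 7 arms of raised background, a median distance of 15472 bases and 39.0% with a neighbour within 10 kb. A pileup of at least 60 gave 2170 peaks, with 1.42, 32.7, 2.17%, 32.2%, a distance of 21351 bases and a summit offset of 6.06% in the same measures. A width under 600 bases left 147, with a background of 1.51, a fold of 36.4, 5.44% in pericentromeric or variable bands, 54.4% on the 7 arms and a summit offset of 6.16%. Without the 7 arms, 589 members had a background of 1.42, a fold of 40.5 and a distance of 21533 bases. With pileups scaled by arm background, chosen after seeing the data, these were 1.45 and 40.6, and 12.2% lay on the 7 arms. With only peaks of at least median fold listed, the median distance was 40736 bases and 20.1% had a neighbour within 10 kb, as fewer peaks were then listed. The other settings joined members within 10 kb, left out pericentromeric and variable bands or chromosome X, placed bands by the summit (for the shares of bands and arms only), or measured gaps between edges or to narrow peaks only (for spacing only). Each measure recomputed under them moved by less than its interval, or, for the number of members, by less than 1.5 times. Among other narrow peaks, the 4448 with a pileup of at least 40 had a median background of 1.29. Depth per sample is unknown, so differences between single bands with few members are limited by the number of peaks.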
